A study of Mus musculus with 4 samples.

Results

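The genes described here were the mouse ribosomal protein pseudogenes, in bone marrow of obese mice with and without exercise. Every gene whose name begins with Rpl or Rps and carries -ps and a number was taken, which gave 314 of the 55401 genes in the tables. The name puts 196 of them with proteins of the large ribosomal subunit (Rpl) and 118 with proteins of the small subunit (Rps). The set was selected on the FPKM of Rpl7a-ps5, which was lower after exercise in these same libraries, so values of that contrast are given as a description. The 4 RNA-seq libraries came from bone marrow of male wild-type C57/B6 mice that were 8 weeks old when the high-fat diet (HFD) began. All the mice had 6 weeks of HFD before they were split into groups. The 2 Ob libraries came from mice that stayed on HFD alone. The 2 Ob + Exe libraries came from mice on HFD that also ran on a treadmill at moderate intensity for 12 weeks. They ran for 1 hour a day on 6 days a week. No mice on a regular diet were among the libraries, so all the values come from obese animals. Nothing in the labels says that each library was 1 mouse, and a p-value then measures only the spread between these libraries.

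Ribosomal protein genes are among the most strongly transcribed genes of dividing marrow cells, because each ribosome needs a copy of nearly every ribosomal protein. A processed pseudogene arises when a spliced mRNA is copied back into DNA and inserted elsewhere in the genome. It lacks the introns and the promoter of its parent gene, and it gathers base changes with age. Short reads from the parent mRNA can align to a young copy as well as to the parent, and a value on a pseudogene can therefore hold reads of either origin. How the aligner placed such reads in these libraries is not given in the sources used here, so the 2 origins cannot be told apart where the sequences are the same.

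In the GENCODE vM21 annotation of GRCm38, 296 of the 314 genes were processed pseudogenes and 9 were transcribed processed pseudogenes. Another 8 were annotated as protein coding and 1 as a long intergenic RNA. A single exon was listed for 305 of them, and the median length was 463 bases, from 171 to 1758. They lay on 20 chromosomes, with 37 of them on the X chromosome. A parent of the same name was found for 313, and these had 58 parent genes. Rpl31 and Rps12 had 24 pseudogenes each, Rpl21 had 15, and Rpl23a, Rpl7a and Rps19 had 14 each.

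The sequences of a few pseudogenes are set beside the coding sequence of the parent to show the bases that separate a read of one from a read of the other. All of them come from the GENCODE vM21 transcripts of GRCm38, run 5′ to 3′ on the strand of the gene and are 120 bases long, less than 1 read of 150 bases. Capitals in a pseudogene mark bases that differ from the parent, and positions count from the A of the parent's start codon. Each stretch is the one without gaps in which the first pseudogene shown differs most from the parent, so it is not typical of the gene. For Rpl7a, a protein of the large subunit, positions 361 to 480 are shown with the same stretch of Rpl7a-ps5 (chr17:57838742-57838861, minus strand) and of Rpl7a-ps3 (chr15:36308465-36308584, minus strand).
Rpl7a: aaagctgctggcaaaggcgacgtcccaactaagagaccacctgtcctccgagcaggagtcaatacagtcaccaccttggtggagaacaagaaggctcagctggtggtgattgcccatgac
Rpl7a-ps5: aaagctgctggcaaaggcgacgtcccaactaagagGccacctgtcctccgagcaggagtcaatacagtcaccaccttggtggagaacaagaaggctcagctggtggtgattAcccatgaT
Rpl7a-ps3: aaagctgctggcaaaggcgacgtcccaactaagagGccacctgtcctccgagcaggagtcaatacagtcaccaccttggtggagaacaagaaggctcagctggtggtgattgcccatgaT
Over the whole coding region Rpl7a-ps5 had 9 substitutions, C41T, A186G, C217T, A342G, A396G, G472A, C480T, T516C and A777G (parent base, position, pseudogene base). They changed 3 codons and left 6 with the same amino acid. A further gap of 6 bases kept the frame, and the open reading frame held 264 codons, where the parent has 266.

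For Rps12, a protein of the small subunit, positions 1 to 120 are shown with Rps12-ps10 (chr2:122219993-122220112, plus strand), one of the pseudogenes lower after exercise, and Rps12-ps3 (chr19:59322371-59322490, plus strand), the most abundant one.
Rps12: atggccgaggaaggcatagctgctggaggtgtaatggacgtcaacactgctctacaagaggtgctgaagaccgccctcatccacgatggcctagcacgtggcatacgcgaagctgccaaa
Rps12-ps10: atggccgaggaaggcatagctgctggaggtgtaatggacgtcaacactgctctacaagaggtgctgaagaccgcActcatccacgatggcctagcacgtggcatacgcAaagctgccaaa
Rps12-ps3: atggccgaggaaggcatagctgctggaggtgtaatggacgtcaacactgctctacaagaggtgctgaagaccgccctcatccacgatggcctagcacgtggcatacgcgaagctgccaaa
Rps12-ps3 was identical to the parent over all 396 bases of its deposited span, whereas Rps12-ps10 had 4 substitutions. The GENCODE vM21 model of Rps12-ps3, which is longer than that span, is annotated as protein coding.

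For Rps10, another protein of the small subunit, positions 354 to 473 are shown with Rps10-ps2 (chr16:20822168-20822287, minus strand), whose 5 substitutions all lie in this stretch.
Rps10: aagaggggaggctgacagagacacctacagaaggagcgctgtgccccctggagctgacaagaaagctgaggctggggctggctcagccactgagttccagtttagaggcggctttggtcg
Rps10-ps2: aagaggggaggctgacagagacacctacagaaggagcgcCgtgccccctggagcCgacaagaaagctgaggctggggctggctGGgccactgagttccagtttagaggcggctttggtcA

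For Rps27a, which encodes ubiquitin fused to a protein of the small subunit, positions 102 to 221 are shown with a diverged copy, Rps27a-ps1 (chr1:52522334-52522453, plus strand), and a recent one, Rps27a-ps2 (chr9:83409761-83409880, plus strand).
Rps27a: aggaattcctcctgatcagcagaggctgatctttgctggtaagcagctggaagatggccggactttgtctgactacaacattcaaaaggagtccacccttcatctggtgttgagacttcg
Rps27a-ps1: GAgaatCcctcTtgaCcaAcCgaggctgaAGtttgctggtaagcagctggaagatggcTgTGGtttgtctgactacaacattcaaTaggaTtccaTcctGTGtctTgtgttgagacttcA
Rps27a-ps2: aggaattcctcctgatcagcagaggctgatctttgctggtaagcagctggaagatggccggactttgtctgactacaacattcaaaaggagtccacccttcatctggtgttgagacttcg
Rps27a-ps1 had 49 substitutions, and A187T put a stop codon into the parent's frame. Rps27a-ps2 had 1 substitution in its coding region, outside this stretch.

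For Rps2 and Rps6, proteins of the small subunit, positions 1 to 120 are shown with Rps2-ps8 (chr17:31644660-31644779, minus strand), which was lower after exercise, and Rps6-ps3 (chr9:53690164-53690283, minus strand), which was higher.
Rps2: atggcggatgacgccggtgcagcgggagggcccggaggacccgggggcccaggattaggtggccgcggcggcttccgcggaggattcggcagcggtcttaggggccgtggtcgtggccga
Rps2-ps8: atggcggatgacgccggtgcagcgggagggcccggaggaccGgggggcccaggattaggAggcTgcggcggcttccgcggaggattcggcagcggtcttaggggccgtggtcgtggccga
Rps6: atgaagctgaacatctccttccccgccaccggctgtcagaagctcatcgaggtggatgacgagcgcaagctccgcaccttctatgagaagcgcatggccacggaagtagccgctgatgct
Rps6-ps3: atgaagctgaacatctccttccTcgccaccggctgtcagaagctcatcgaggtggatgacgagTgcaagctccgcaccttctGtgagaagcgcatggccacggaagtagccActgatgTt
Rps2-ps8 had 9 substitutions, of which C454T made a stop codon after 151 of 293 codons. Rps6-ps3 had 11 substitutions and kept all 249 codons open.

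Expression was read from FPKM, fragments scaled to transcript length and library size, summed over the transcripts of a gene and brought to a common scale between libraries (scaled FPKM). Of the 314 pseudogenes, 127 were listed at 0 in all 4 libraries, 58 had a mean under the minimum of 0.1 FPKM and 129 were above it and entered the comparison. Values above 0 were listed for 165 and 145 pseudogenes in the Ob libraries and for 133 and 141 in the Ob + Exe libraries. Over all genes the numbers above 0 were 23309 and 20663 in Ob against 17752 and 19291 in Ob + Exe, so the first Ob library had the most in either case. A scaled FPKM of at least 10 was reached by 32 and 32 pseudogenes in Ob and by 31 and 29 in Ob + Exe. Of the large subunit pseudogenes 73 entered the comparison, and of the small subunit pseudogenes 56.

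**Figure D1:**
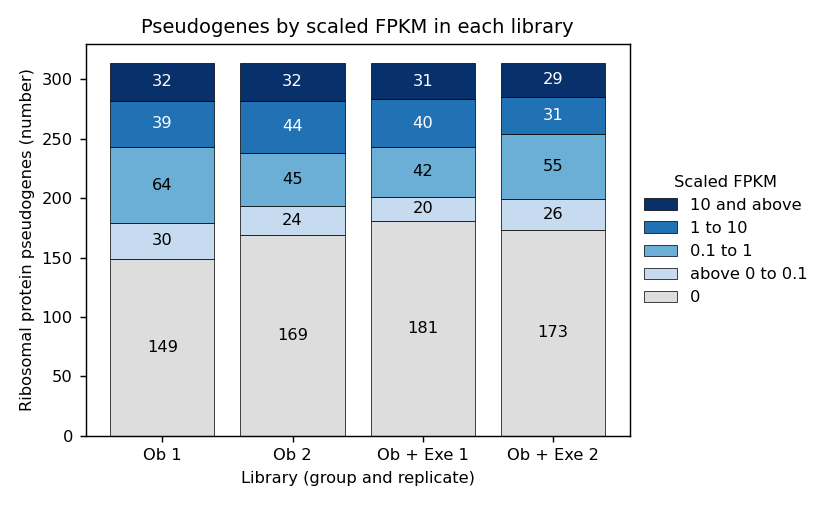
Number of ribosomal protein pseudogenes (vertical axis) in 5 classes of scaled FPKM in each of the 4 libraries, with the count printed in each block. From 149 to 181 of the 314 were listed at 0 in a library, and from 29 to 32 had a scaled FPKM of at least 10.

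A few pseudogenes held most of the signal. The scaled FPKM of all pseudogenes summed to 2401 and 2518 in the Ob libraries, against 2801 and 2198 in the Ob + Exe libraries. The 10 highest of a library held from 70.3% to 74.6% of that sum, and Rps12-ps3 alone held from 25.9% to 31.5%. Set against the summed scaled FPKM of the 58 parents, the pseudogenes amounted to 7.37% and 7.54% in Ob, against 7.71% and 7.89% in Ob + Exe. Rps12-ps3 had a scaled FPKM of 634.0 and 652.7 in Ob against 883.1 and 592.4 in Ob + Exe, which was 60.1% of the mean of Rps12. Rpl17-ps3 had 188.1 and 220.5 in Ob against 300.9 and 220.5 in Ob + Exe, or 17.8% of the mean of Rpl17, a protein of the large subunit. The first Ob + Exe library was the highest of the 4 for both of them, and the groups overlapped. Of the others among the 10 highest, Rps10-ps2 had 50.9% of its parent's mean, Rps16-ps2 30.4%, Rpl38-ps2 25.3%, Rps7-ps3 15.9%, Rpl31-ps8 15.1%, Rpl3-ps1 13.8%, Rpl17-ps10 12.2% and Rps27a-ps2 7.57%. In all, 12 pseudogenes had at least 10% of the level of the parent and 42 had at least 1%. None had a mean above that of its parent.

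Sequence identity to the parent went with the level relative to the parent. Of the 314 pseudogenes, 305 aligned to a transcript of the parent over at least 80% of their length. Their median identity was 96.3% and the minimum 68.1%, and positions in gaps counted against identity. The minimum was that of Rpl28-ps2, with 378 matching bases, 32 mismatches and 145 positions in gaps. The 14 that were identical to the parent were all above the minimum of 0.1 FPKM, with a median of 6.57% of the parent's level. Of 48 with an identity of 99% to under 100%, 46 were above the minimum, and their median was 0.359% of the parent. Of 114 between 95% and 99%, 53 were above it, with a median of 0.0201%. Between 90% and 95% the count was 6 of 64, and under 90% it was 6 of 65, and the median was 0 in both classes. Over the 125 aligned pseudogenes above the minimum, Spearman's rho between identity and percent of the parent was 0.61 across genes, which share libraries and parents and are not independent replicates. The 5 aligned pseudogenes of the lowest identity, Rpl28-ps2, Rps13-ps8, Rpl36a-ps4, Rps2-ps12 and Rpl17-ps6, were listed at 0 in all 4 libraries.

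**Figure D2:**
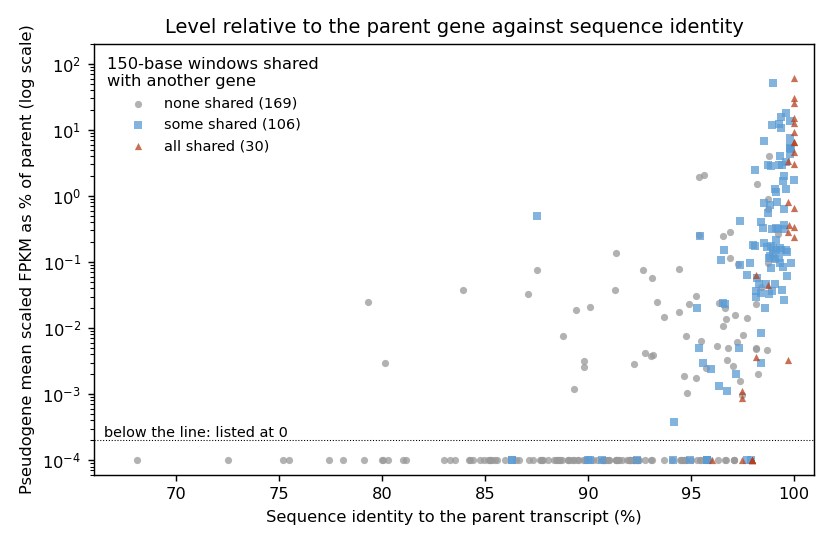
Mean scaled FPKM of each of 305 pseudogenes as a percent of its parent (vertical axis, log scale) against sequence identity to the parent (horizontal axis, %). Symbols give the 150-base windows shared with another gene, and points under the dotted line are listed at 0. The 14 identical copies lie at the right edge with a median of 6.57%.

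A window of 150 bases, the length of 1 read of a pair, was used to ask how much of a pseudogene is found unchanged elsewhere. Only exact matches on the same strand counted, so a pseudogene without a shared window is not shown to be free of parent reads. Rps12-ps10, for example, shared 0 windows at an identity of 99%. At least 1 such window was found unchanged in a transcript of another annotated gene in 78.4% of the aligned pseudogenes above the minimum. The share was 32.1% in those below it and 16.1% in those listed at 0 in all 4 libraries. Windows of the parent itself were shared by 76%, 12.5% and 0.807% in the same order. An open reading frame of at least 95% of the parent's codons was kept by 68%, 58.9% and 29% of them. Of the 20 highest pseudogenes, all 20 shared windows with the parent and the lowest identity was 98.9%. The highest of those with no shared window was Rps10-ps1, with a scaled FPKM of 16.2 and 21.6 in Ob against 14.8 and 13.9 in Ob + Exe. Overlap with another annotated gene was found for 42.6% of the pseudogenes above the minimum and 23.6% of those listed at 0, and its part in the levels was not tested.

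Some copies formed groups on 1 chromosome. Of the 24 Rps12 pseudogenes, 13 lay within chrX:123285044-125987364. Their identity to Rps12 ran from 95.8% to 98%, all 13 shared windows with another annotated gene and none with Rps12, and 11 were listed at 0 in all 4 libraries. Another 6, of Rpl23a, lay within chr7:31603294-33697737 with an identity of 84.2% to 86.3%, and all 6 were listed at 0. The Rpl7a family had 3 of 14 pseudogenes above the minimum and 9 at 0, and Rpl7a-ps5 was the highest of them.

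The comparison of Ob + Exe with Ob asked how exercise changed expression in marrow of obese mice. It was tested with limma, and a gene was called where its unadjusted p was under 0.05 and its log2 fold change exceeded 1 in size, as in the methods of the study. Over all 18596 genes tested, 3.71% were called, 2.73% as lower in Ob + Exe and 0.979% as higher. After Benjamini-Hochberg adjustment in limma, 0 genes passed 0.05 (smallest adjusted p 0.768), while 933 genes, or 5.02%, had an unadjusted p under 0.05. Of the 129 pseudogenes, 11 were called, or 8.53%, with 10 lower and 1 higher. Their median log2 fold change was −0.19, beside −0.024 over all genes, and 76 had a negative value and 53 a positive one. The groups did not overlap in 53 pseudogenes, or 41.1%, beside 32.7% of all genes. Ob + Exe was on the lower side in 38, or 29.5% of the 129, beside 18.7% of all genes. The same share was 26.9% in 1220 other processed pseudogenes and 34.5% in the 58 parents. Ob + Exe was on the higher side in 15 of the 129, beside 2610 of the 18596 genes, or 14%. Because the pseudogenes were chosen with this contrast known, the counts are a description. The median turned to 0.046 without the second Ob + Exe library, and with 2 libraries a group the smallest two-sided p of an exact permutation test on 1 value is 0.333.

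Rpl7a-ps5 had a scaled FPKM of 10.8 and 12.7 in Ob against 2.75 and 3.37 in Ob + Exe. Both Ob + Exe libraries were far below both Ob libraries, with 127.2 and 146.9 read equivalents (coverage times length divided by 150 bases) against 580.5 and 666.4. The group means were 11.7 ± 1.35 and 3.06 ± 0.437 (SD, n = 2), and the log2 fold change was −1.91 ± 0.28 (SE). The gene is a single exon at chr17:57838430-57839221 on the minus strand, opposite to Cntnap5c, which spans it on the other strand. Windows shared with Rpl7a made up 14.3% of it, and windows shared with any other annotated gene 33.3%. The parent Rpl7a had a scaled FPKM of 318.7 and 347.8 in Ob against 317.1 and 195.7 in Ob + Exe, with a log2 fold change of −0.42 that was not called. The first Ob + Exe library was thus just under the lower Ob library for Rpl7a, while Rpl7a-ps5 was lowest there. Rpl7a-ps3 had 2.13 and 1.41 in Ob against 0.0664 and 0.206 in Ob + Exe, and was called as well. Those Ob + Exe values rested on 3.1 and 9 read equivalents. The third Rpl7a pseudogene above the minimum, Rpl7a-ps11, had a mean scaled FPKM of 1.05 and was not called.

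Among the small subunit pseudogenes, 5 were called as lower, Rpsa-ps2 among them, and 1 as higher. Rps2-ps8 had a scaled FPKM of 1.37 and 1.496 in Ob against 0.132 and 0.233 in Ob + Exe, with a log2 fold change of −2.47 ± 0.56 (SE). Those Ob + Exe values rested on 6.8 and 11.3 read equivalents. Its parent Rps2, which lies at the mRNA entry of the small subunit, had 616.3 and 572.2 in Ob against 688.6 and 590.8 in Ob + Exe. Rps12-ps10 had 1.499 and 2.96 in Ob against 0.169 and 0.690 in Ob + Exe, with as few as 3.9 read equivalents in the first Ob + Exe library. The Ob + Exe libraries of Rps12-ps10 differed several-fold from each other, yet did not reach the Ob libraries. Rps27a-ps1 had 0.624 and 0.7495 in Ob and was listed at 0 in both Ob + Exe libraries, so no fold is given. Rpsa-ps2, a copy of the gene for the small subunit protein that is also known as laminin receptor, had 4.97 and 4.83 in Ob against 1.64 and 2.97 in Ob + Exe. Rps6-ps3, a copy of the S6 kinase target Rps6, was the called pseudogene with higher values, with 1.20 and 0.951 in Ob against 2.36 and 2.58 in Ob + Exe. This call was lost with a pseudocount of 1, at a log2 fold change of 0.74, with limma voom and with the replicate block. Rps6-ps3 overlaps Rab39 on the same strand, and the part of Rab39 in its values was not tested.

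Of the large subunit pseudogenes, Rpl28-ps1, Rpl21-ps10 and Rpl26-ps1 were called as lower besides those of Rpl7a. Rpl28-ps1 is identical to Rpl28 over its 414 bases, and had 19.96 and 18.2 in Ob against 4.14 and 10.7 in Ob + Exe. Rpl28 itself had 247.6 and 285.8 in Ob against 130.9 and 136.2 in Ob + Exe, with a log2 fold change of −0.99 that lay just inside the limit of 1. The pseudogene and the parent were thus both lower in both Ob + Exe libraries. Rpl21-ps10 had 0.745 and 1.55 in Ob against 0.302 and 0.0928 in Ob + Exe, and overlaps Gm43821 on the same strand. Rpl26-ps1, which overlaps F930017D23Rik on the same strand, had 0.760 and 0.209 in Ob and was listed at 0 in both Ob + Exe libraries. Past a log2 fold change of 1, with groups that did not overlap, Rps15a-ps4 and Rpl35a-ps5 had higher values in Ob + Exe but were not called. Rps15a-ps4 had 0.386 and 0.141 in Ob against 1.94 and 0.606 in Ob + Exe. Rpl35a-ps5 had 0.104 and 0 in Ob against 0.422 and 0.355 in Ob + Exe. With a mean of 0.052 in Ob, Rpl35a-ps5 passed the minimum of 0.1 only through its Ob + Exe values, so nothing is read from it. In all, 26 pseudogenes were past that size without overlap, or 20.2% of the 129, beside 9.81% of all genes tested. Of the 129, 22 were past it without overlap and lower in Ob + Exe, beside 1320 of the 18596 genes, or 7.1%. These counts include pseudogenes that passed the minimum only through the group where they were high. With or without overlap, 31 of the 129 were past that size, beside 459 of 1220 other processed pseudogenes and 2929 of the 18596 genes. An excess particular to the ribosomal protein pseudogenes was not tested.

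**Figure D3:**
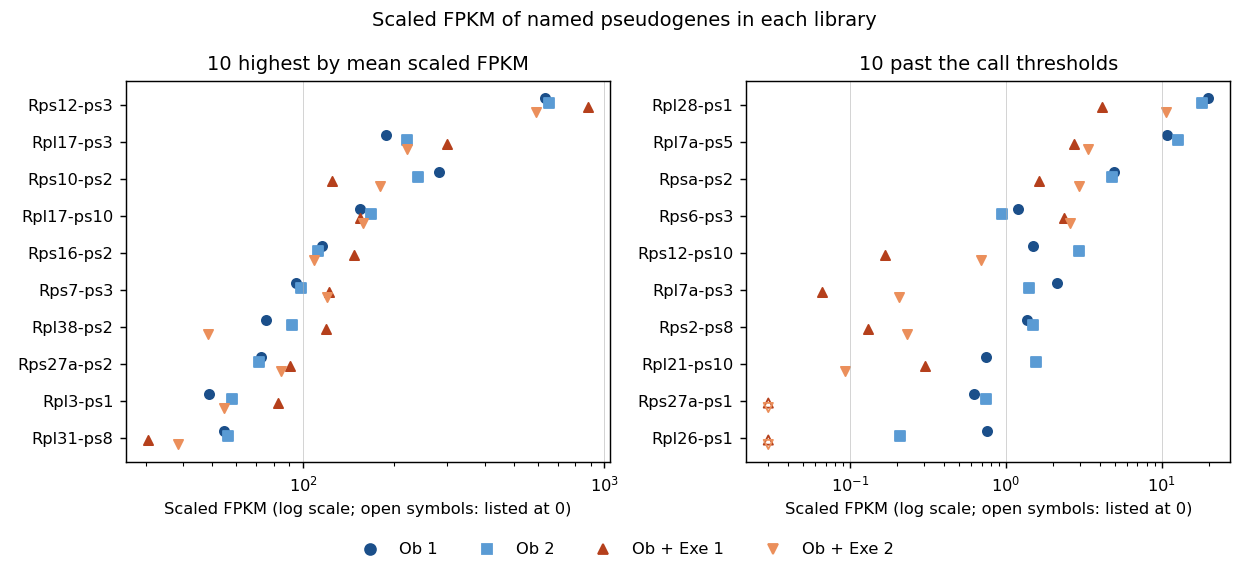
Scaled FPKM (horizontal axes, log scale) of the 10 highest pseudogenes on the left and of 10 of the called ones on the right, 1 symbol per library, with open symbols for values listed at 0. On the left the groups overlap except for Rps10-ps2, Rpl31-ps8, Rps7-ps3 and Rps27a-ps2. The pseudogenes on the right were picked by the call on this contrast. There both Ob + Exe symbols lie left of both Ob symbols except for Rps6-ps3, where they lie right.

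The calls differed in how far they rested on 1 library. The calls of Rpl7a-ps5 are a description, because it was chosen for its lower values in these same libraries. Without each of the 4 libraries in turn, its log2 fold change ran from −2.06 to −1.77. Rpl7a-ps5, Rpl7a-ps3 and Rps2-ps8 were called in each of these fits. Rps27a-ps1 was called in each case too, but it is listed at 0 in both Ob + Exe libraries and passed the minimum only through its Ob values, so nothing is read from that. Rpl28-ps1, Rpsa-ps2 and Rps12-ps10 were called only when the second Ob + Exe library was the one left out. Without the first Ob + Exe library they had log2 fold changes of −0.84, −0.71 and −1.49, and without the second −2.18, −1.53 and −3.05. Rps6-ps3 and Rpl21-ps10 kept the call only without the first Ob + Exe library, at 1.19 and −2.62. Rpl26-ps1 kept it only without the second Ob library and was under the minimum, so not tested, without the first. Like Rps27a-ps1, it is listed at 0 in both Ob + Exe libraries and passed the minimum only through its Ob values. Nothing is read from its calls either. The number of pseudogenes called was 7 without the first Ob library, 5 without the second, 10 without the first Ob + Exe library and 20 without the second. Over all genes the calls in the same order were 797, 601, 1226 and 1853, so the most calls were made without the second Ob + Exe library in either case. There the share of pseudogenes called stood furthest above that of all genes. Without any of the other libraries it lay nearer to the share of all genes. The split of the calls moved as well, to 12 lower and 8 higher without the second Ob + Exe library, 10 and 4 with quantile normalization and 12 and 3 without an intensity trend. With a pseudocount of 1, Rps27a-ps1, Rpl26-ps1, Rpl21-ps10, Rpsa-ps2 and Rps6-ps3 were no longer called. Rpl7a-ps3 and Rps2-ps8 were still called there, but their log2 fold changes shrank from −3.025 to −1.28 and from −2.47 to −1.04. With limma voom Rps6-ps3, Rps12-ps10, Rpl21-ps10 and Rpl26-ps1 were not called.

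In the 10 highest pseudogenes the log2 fold change lay within 0.42 of that of the parent. Rps10-ps2 had a scaled FPKM of 282.9 and 241.0 in Ob against 124.8 and 180.0 in Ob + Exe. Rps10 had 561.7 and 470.8 in Ob against 274.7 and 320.5 in Ob + Exe. Both were lower in both Ob + Exe libraries, with log2 fold changes of −0.80 and −0.79, and neither was called. Rps10-ps2 was at 45.4% to 56.2% of Rps10 in each library. Rpl31-ps8, identical to Rpl31, had 54.7 and 56.4 in Ob against 30.6 and 38.4 in Ob + Exe, with a log2 fold change of −0.70 beside −0.28 for Rpl31. Rpl38-ps2, identical to Rpl38, had 75.5 and 92.2 in Ob against 119.2 and 48.4 in Ob + Exe, so the spread in Ob + Exe covered both Ob values. Rps27a-ps2 had 72.7 and 71.2 in Ob against 90.2 and 84.1 in Ob + Exe, with a log2 fold change of 0.28 beside 0.30 for Rps27a. Rps7-ps3 had 94.5 and 98.1 in Ob against 121.4 and 119.9 in Ob + Exe, with a log2 fold change of 0.33 beside −0.064 for Rps7.

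**Figure D4:**
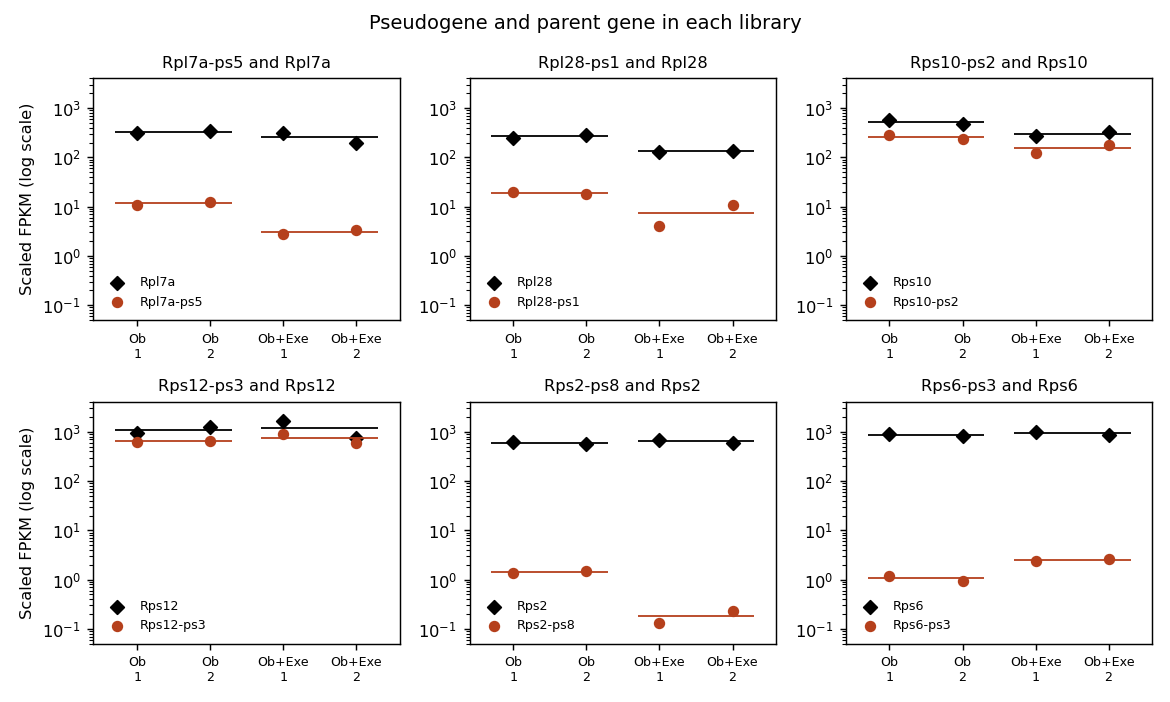
Scaled FPKM (vertical axes, log scale) of 6 pseudogenes (circles) and their parents (diamonds) in each library, with a line at each group mean. Rps10-ps2 and Rpl28-ps1 were lower in Ob + Exe together with their parents, while Rps2-ps8 was lower and Rps6-ps3 higher beside parents with log2 fold changes of 0.10.

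Over all 129 pseudogenes the log2 fold change had the same sign as that of the parent in 84. Pearson's r was 0.27 and Spearman's rho 0.32, across genes that share libraries and, in part, parents. The median distance between the log2 fold changes of pseudogene and parent was 0.24 in the 19 whose windows were all shared with another gene. It was 0.34 in the 79 that shared some and 0.75 in the 31 that shared none. Pearson's r did not follow this order, at 0.28, 0.48 and −0.061. The median level moved with this order, at a scaled FPKM of 14.5, 1.18 and 0.464, and its part was not tested. By level alone, the median distance was 0.29 in the 68 with a mean of at least 1 FPKM and 0.63 in the other 61.

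**Figure D5:**
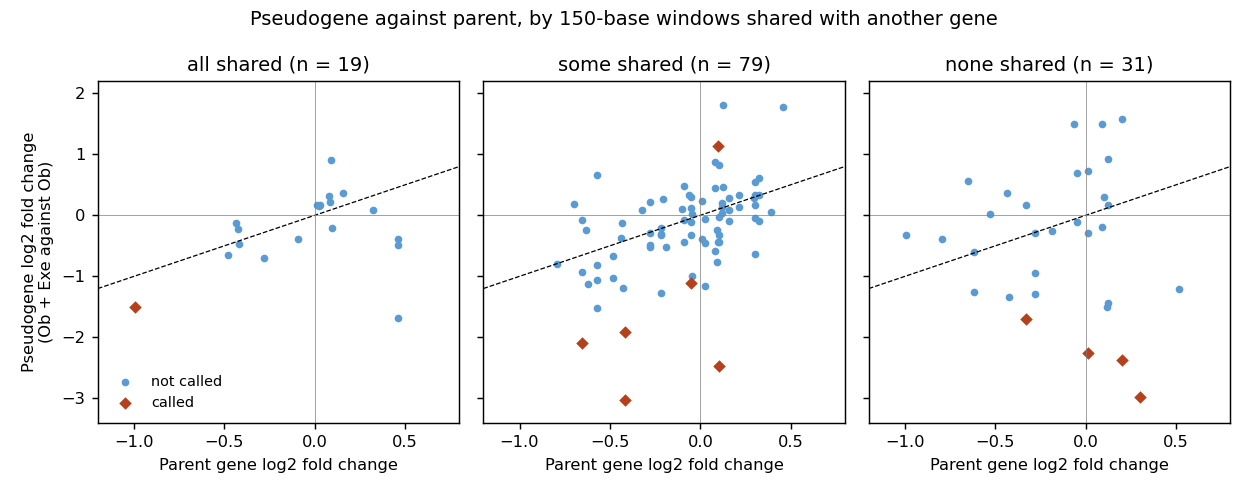
Log2 fold change of Ob + Exe against Ob for each of 129 pseudogenes (vertical axis) and for its parent (horizontal axis), in 3 panels by the 150-base windows shared with another gene. The dashed line marks equal values, diamonds mark called pseudogenes, and the points lie closest to the line where all windows were shared (median distance 0.24).

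The difference between the 2 libraries of a group was not used to choose the pseudogenes. In the Ob + Exe group the first library was above the second by a median of 0.20 on the log2 scale in the 129 pseudogenes and by 0.41 in their parents, each parent counted once for each pseudogene. Pearson's r between these differences of pseudogene and parent was 0.16 in Ob + Exe and 0.14 in Ob, so they moved together only weakly. It was 0.45 and 0.25 in the 19 with all windows shared, 0.094 and 0.29 in the 79 with some and 0.18 and 0.024 in the 31 with none, so it followed no order of sharing in either group. The first Ob + Exe library was the highest of the 4 for 46 of the 129 pseudogenes and for 30 of the 58 parents. The second was the highest for 20 of the pseudogenes and for 0 of the parents.

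The functional genes around the pseudogenes were set beside them. None of the 58 parents was called in limma, with log2 fold changes from −0.99 to 0.52, a median of −0.061, 6 at an unadjusted p under 0.05 and 1 called by limma voom. Of a list of 79 genes for cytosolic ribosomal proteins, 48 had negative and 31 positive log2 fold changes, and 1 was called. This was Rps28, a protein of the small subunit with no pseudogene among the 314, with 254.0 and 268.7 in Ob against 96.7 and 164.1 in Ob + Exe. Rps28 did not overlap between the groups, and its Ob + Exe libraries differed more from each other than its Ob libraries did.

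Other pseudogenes were examined in the same fit. Among 9640 other processed pseudogenes of the annotation, 1220 were tested, and 87 were called as lower and 24 as higher, or 9.10%, with a median log2 fold change of −0.20. For the ribosomal protein pseudogenes the same values were 8.53% and −0.19. Among 961 other pseudogenes named in the same way, 93 were tested and 3.23% were called, with a median of −0.055. None of the 11 called pseudogenes had a parent that was called in limma with the trend, while limma voom called Rpl28, the parent of Rpl28-ps1. A parent whose groups did not overlap was found for 7 of the 11, beside 41.4% of the 58 parents and 32.7% of all genes.

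Sums of marker genes differed between the libraries. The 8 B lineage genes summed to a scaled FPKM of 237.4 and 253.5 in Ob against 185.4 and 143.8 in Ob + Exe, and all 8 had lower values in Ob + Exe, 2 of them called. The 7 megakaryocyte genes summed to 462.8 and 341.2 in Ob against 384.9 and 137.2 in Ob + Exe, and the 8 neutrophil genes to 47590 and 27380 in Ob against 35470 and 62850 in Ob + Exe. The 8 genes of proliferating cells summed to 1089 and 1200 in Ob against 999.7 and 1131 in Ob + Exe. The sums ran from 47.2 to 79.5 for T and NK cells, from 444.9 to 510.8 for monocytes and macrophages, and from 104.2 to 163.6 for stroma and osteoblasts. The 6 adipocyte genes summed to 65.3 and 64.95 in Ob against 110.6 and 87.1 in Ob + Exe, with Lep at 0 in all 4, and the 6 skeletal muscle genes to 9.36 and 5.54 in Ob against 12.9 and 12.3 in Ob + Exe. Both sums were higher in both Ob + Exe libraries, but of the adipocyte genes tested 2 had lower and 2 higher values. Plin1, Cidec and Lep were under 1 in all 4 libraries. Of the muscle genes tested, 0 were lower and 4 higher, with 1 called. Of the neutrophil genes 1 was lower and 7 were higher, and all 7 megakaryocyte genes were lower, with 1 called. The second Ob + Exe library had the most neutrophil and the least megakaryocyte and B lineage signal, and the part of these cells in the pseudogene values was not tested. In bulk marrow, fewer cells of a type and less RNA per cell cannot be told apart. The labels also name mesenchymal stem cells and fibroblast, and of the 8 stroma and osteoblast genes Pdgfra and Sp7 were under 1 in all 4 libraries, while each of the others reached 1 in at least 1 library. The 8 erythroid genes summed to between 54340 and 81290.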

How the data were processed

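Reads of 4 bone marrow libraries were processed by the authors. Per the labels and methods they used FastQC, fastp, a filter for rRNA reads, HISAT2 on GRCm38, SAMtools and StringTie with GENCODE vM25, and DESeq2 for their own test, in versions not given in the sources used here. The authors deposited 1 transcript table per library with coverage (a signal not normalized for depth) and FPKM. Here, the deposited FPKM were summed per gene and scaled by median-of-ratios factors from 0.949 to 1.03. Aligned bases amounted to 8702 to 9952 Mb per library, and coverage times length divided by 150 gave 44310505 to 53038186 read equivalents, which are not whole reads. Each group had 2 libraries.

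A mean FPKM of 0.1 or more was required of a gene, and log2(scaled FPKM + 0.1) was fitted in limma 3.58.1 (R 4.3.3) with an intensity trend. The groups were compared in this fit, and fold changes on this scale understate those of low genes. The test was checked on simulated data. Identity, reading frames and shared 150-base windows were computed from GENCODE vM21 transcripts with Biopython 1.88 in Python 3.11.15. In that annotation, 313 of the 314 pseudogenes had the coordinates of the tables. The exception was Rps12-ps3, the most abundant one. Its longer vM21 transcript was trimmed to the deposited span before identity, reading frame and windows were computed. Figures were drawn with matplotlib 3.10.9.

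The pseudogenes and all the gene lists were chosen with earlier results of these data known. The genes named are Rpl7a-ps5, the 10 highest pseudogenes, those called, up to 10 past a log2 fold change of 1 with groups that did not overlap, their parents, and the 5 of highest and 5 of lowest identity. The values of 1 of the called pseudogenes are not reported here. Rps10-ps1, Rpl7a-ps11 and Rps28 were named after their values were seen. Alternatives were other pseudocounts, minimum values and scalings, limma voom, no trend, the replicate block, fewer pseudogenes and leaving out each library.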

Additional observations from a re-analysis of the deposited data

How the results depend on the processing

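Depth was not tested as a limit of its own, and values of a few read equivalents carry a large counting error. Examples are the 2.5 of Rpl21-ps10, the 3.1 of Rpl7a-ps3 and the 3.9 of Rps12-ps10, each in 1 Ob + Exe library. Only 2 libraries stand behind each mean, and reads shared between a pseudogene and its parent cannot be told apart in these tables. With a pseudocount of 1, 224 genes and 6 pseudogenes were called, in place of 690 and 11, and the median log2 fold change of the pseudogenes was −0.051 in place of −0.19. With a minimum mean of 1 FPKM, 267 genes and 6 pseudogenes were called, with limma voom 455 and 7, and 1061 genes without an intensity trend. With quantile normalization the median of the pseudogenes was −0.023, and the median of pseudogene minus parent turned from −0.068 to 0.083. With a pseudocount of 1 the latter was 0.020. Among the 74 pseudogenes that overlap no other gene, 5 were called. The cause of these differences was not tested, apart from the smaller number of genes tested with the higher minimum and without the overlapping pseudogenes. Leaving out each library in turn gave 601 to 1853 genes and 5 to 20 pseudogenes called, assuming that the lone library of a group varied like the others. The median of the pseudogenes then ran from −0.34 without the first Ob + Exe library to 0.046 without the second. That of the parents ran from −0.25 to 0.12, and that of pseudogene minus parent from −0.14 to −0.032. The libraries share replicate numbers in the labels but no stated pairing, and the deviations of libraries with the same number had a correlation of −0.11 over the genes tested. With the replicate block, 776 genes and 11 pseudogenes were called, and Rps6-ps3 and Rpl26-ps1 were no longer among them. With the crossed pairing, chosen after seeing the data, 782 and 13 were called. Among pseudogenes sharing no window, a choice also made after seeing the data, the median was −0.28. Rpl7a-ps5 was called under all 13 alternatives, with log2 fold changes from −2.06 to −1.65. It was chosen for its lower values in these same libraries, so these calls are a description.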
